A study of Mus musculus with 7 samples.

Results

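Granins are acidic proteins that fill the dense-core granules of neurons and endocrine cells, and the prohormone processing enzymes cut peptide hormones and neuropeptides out of their precursors inside the same granules. The genes described here are the granins Chga, Chgb, Scg2, Scg3 and Vgf, the convertases Pcsk1 and Pcsk2, their binding proteins Pcsk1n and Scg5, and the carboxypeptidase gene Cpe. They were chosen by name, as probe sets that the array annotation pairs with 1 of these gene symbols, with the highest mean over the 7 arrays kept where a gene had several. Of 10 named genes 9 were measured, out of 19938 genes in all, and Pcsk2 is not analysed here. Each of the 9 had 1 probe set, so the level did not decide which was used. In the annotation Chgb and Scg5 lie on chromosome 2, Scg2 on 1, Vgf on 5, Cpe on 8, Scg3 on 9, Chga on 12, Pcsk1 on 13 and Pcsk1n on X.

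The measurements come from bowel cells of mouse embryos at embryonic day 17.5 that carried Wnt1-Cre and R26R-EYFP, sorted by fluorescence into 4 YFP-positive samples labelled ENCDC (enteric neural crest-derived cells) and 3 YFP-negative samples labelled non-ENCDC. Both groups carry the same alleles, Cre is driven by Wnt1 sequences that act in the neural crest, and only cells in which Cre has acted, and their descendants, make EYFP. The comparison asks what distinguishes ENCDC from the other cells of the bowel. The labels name neither strain nor sex and do not say whether a sample held 1 embryo or several. The p-values therefore reflect the variation among the 7 samples, which may be technical.

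Enteric neurons release many of their signals as peptides, among them those made from Vip and Gal. The precursors enter the granule in the Golgi, convertases cut them at pairs of basic residues as the granule acidifies, and carboxypeptidase E trims the basic residues that are left. Enteroendocrine cells, the hormone cells of the gut epithelium, use the same granule proteins for hormones such as GIP and secretin. They do not come from the neural crest, so both sorted populations can hold cells with dense-core granules.

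The sort separated the marker genes of its target cells. All 8 measured genes of enteric neurons and all 5 of glia and progenitors were higher in YFP-positive cells, and the mean level of the neuron genes was 8.89 to 9.42 against 5.15 to 5.55 (log2 expression). All 6 myeloid genes were lower, at a mean of 5.42 to 6.67 against 9.67 to 9.96. Genes of the intestinal epithelium did not separate: 0 of 12 passed by limma (1 higher and 1 lower at an unadjusted p under 0.05), with a mean of 8.21 to 9.31 on YFP-positive and 8.53 to 8.86 on YFP-negative arrays. Values are on a log scale of an array, so no marker can be listed at 0. Within the YFP-positive group the epithelial mean was 8.21 to 8.42 on the first pair of arrays (1 and 2) but 9.15 to 9.31 on the other pair (3 and 4), and without the latter pair 2 of the 12 genes passed as lower. The part of these cells in any result below was not tested. In sorted populations like these, fewer cells of a type and less RNA per cell cannot be told apart.

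Several granule genes carry a cyclic AMP response element (CRE), the site bound by CREB-family factors, close to their start. The sequences below show where it lies in genes that passed the comparison and in genes that did not. They are the 120 bases before the RefSeq gene start (GRCm38.p6), 5′ to 3′ on the gene's strand, for Scg2 (chr1:79440027-79440146, minus strand), Chgb (chr2:132781522-132781641, plus strand), Pcsk1 (chr13:75089737-75089856, plus strand), Chga (chr12:102554821-102554940, plus strand) and Scg3 (chr9:75684057-75684176, minus strand). Capitals mark the 8-base element TGACGTCA or, where it is missing, the first copy of its 5-base core TGACG.
Scg2: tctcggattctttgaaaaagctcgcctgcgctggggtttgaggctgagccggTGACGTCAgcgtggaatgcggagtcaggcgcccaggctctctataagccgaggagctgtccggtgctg
Chgb: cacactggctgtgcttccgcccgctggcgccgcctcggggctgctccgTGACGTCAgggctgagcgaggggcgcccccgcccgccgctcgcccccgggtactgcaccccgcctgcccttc
Pcsk1: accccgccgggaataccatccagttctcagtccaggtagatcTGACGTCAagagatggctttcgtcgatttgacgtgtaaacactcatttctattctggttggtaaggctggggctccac
Chga: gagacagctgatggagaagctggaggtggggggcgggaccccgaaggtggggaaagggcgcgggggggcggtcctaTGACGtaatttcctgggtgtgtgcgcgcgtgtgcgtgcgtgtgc
Scg3: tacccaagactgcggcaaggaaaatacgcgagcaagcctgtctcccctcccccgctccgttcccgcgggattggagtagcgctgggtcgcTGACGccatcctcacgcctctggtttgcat

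The full element TGACGTCA, which reads the same on both strands, begins 68 bases before the start of Scg2, 72 before Chgb and 78 before Pcsk1. These were 3 of the 8 named genes with a promoter entry, Pcsk2 among the 8, and 1.79% of 32851 mouse promoter windows of the same 300 bases (250 before and 50 after the start) held it. The core TGACG or its complement CGTCA, which lies inside every full element, was found in 7 of the 8 and in 20.8% of all windows. It lies 44 bases before Chga, 30 before Scg3, 34 before Pcsk2 and 175 before Scg5, and Pcsk1n had no match in its window. The GC box GGGCGG or CCGCCC was found in 6 of the 8, against 35.7% of windows, and not in those of Scg2 and Scg3. A match describes the letters only, and Scg2, which rose in the comparison below, shares the full element with Chgb and Pcsk1, which did not pass.

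Some granule genes passed the test as higher in YFP-positive cells, and others did not pass. Of the 9 measured, 5 rose in YFP-positive cells and 0 fell (limma, Benjamini-Hochberg adjusted p under 0.05 over all genes, with 1 lower at an unadjusted p under 0.05). Of all genes 8.39% were called higher and 9.11% lower, 17.5% together. The median log2 difference, YFP-positive minus YFP-negative, was 0.55 over the 9 and 0.01 over all genes. The 5 that rose were Scg3, Scg5, Scg2, Pcsk1n and Vgf. The levels of the 2 groups did not overlap for these same 5, where 13.5% of all genes had such a gap upward and 26.9% a gap in either direction. Chga, Pcsk1, Cpe and Chgb did not pass, and their ranges overlapped. Not passing does not by itself set a gene apart. The log2 difference of Pcsk1 was 0.47 ± 0.22 (SE), close to the 0.55 ± 0.09 of Vgf, which passed. The genes were brought together with results of these arrays known, so the count describes them and is no test of the list.

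**Figure D1:**
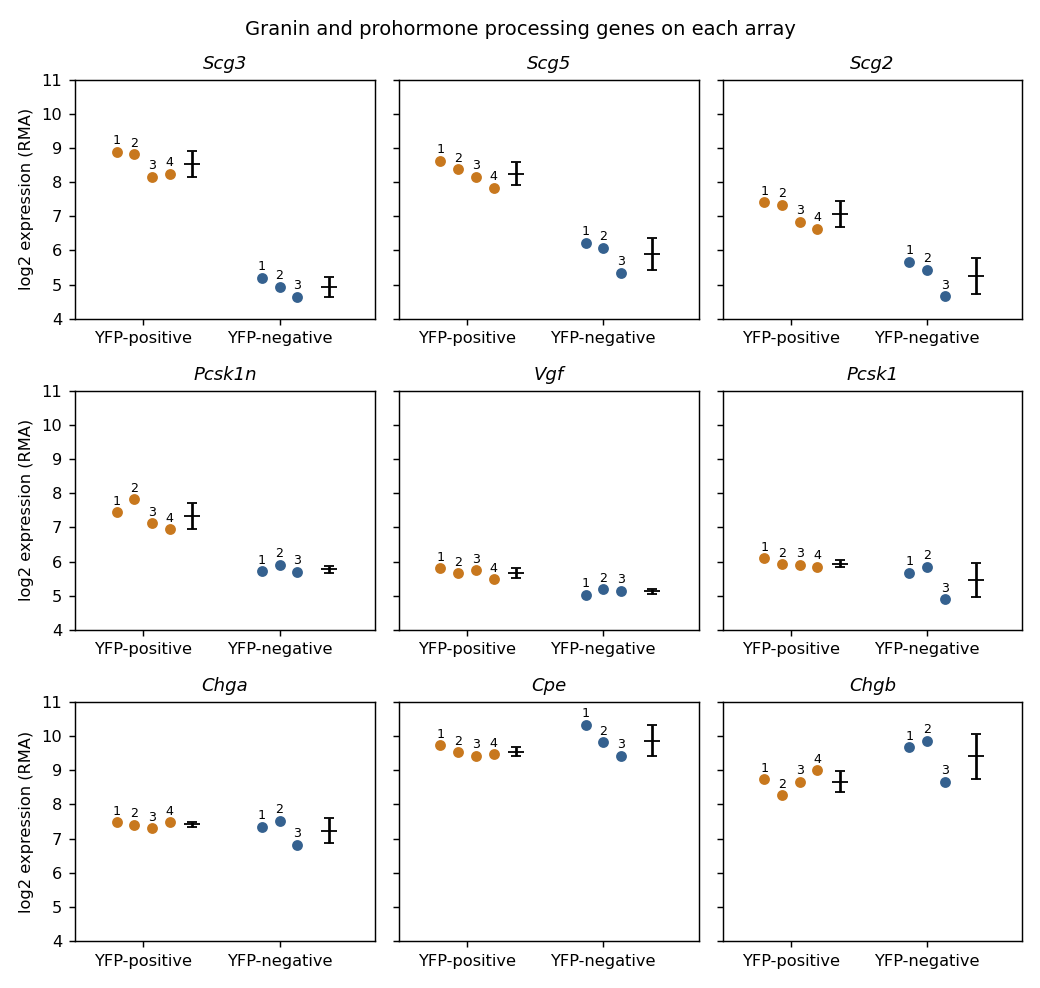
Log2 expression (RMA) of the 9 measured genes on each array, in YFP-positive (orange, n = 4) and YFP-negative (blue, n = 3) cells. Digits give the replicate number, and the black bar gives the mean ± SD. Scg3, Scg5, Scg2, Pcsk1n and Vgf have no overlap between the groups, and YFP-negative array 3 has the lowest YFP-negative value for 8 of the 9 genes.

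Scg3 had the largest difference of the family. It encodes secretogranin III, which binds chromogranin A and the cholesterol-rich granule membrane. Its log2 level was 8.89, 8.81, 8.16 and 8.25 on YFP-positive arrays 1 to 4 and 5.20, 4.94 and 4.64 on YFP-negative arrays 1 to 3. Every YFP-positive array was far above every YFP-negative one. The level was 12.2-fold higher in YFP-positive cells, with a 95% confidence interval of the moderated fit from 8.42- to 17.6-fold (log2 difference 3.61 ± 0.22 SE, limma adjusted p = 1.06e-04). Only 30 of the 19938 genes had a larger positive difference.

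Scg2, the precursor of the peptide secretoneurin, rose by less. Its log2 level was 7.41, 7.34, 6.84 and 6.64 on the YFP-positive arrays and 5.67, 5.43 and 4.65 on the YFP-negative arrays. The groups did not overlap, and the lowest value of all was on YFP-negative array 3. The difference was 1.81 ± 0.29 (log2 ± SE), which is 3.5-fold (limma adjusted p = 0.00572).

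Vgf, a granin-like gene named for its induction by nerve growth factor, had a small but even difference. Its log2 level was 5.80, 5.66, 5.75 and 5.48 on the YFP-positive arrays against 5.03, 5.19 and 5.15 on the YFP-negative arrays. The groups did not overlap, and the 1.46-fold difference (0.55 ± 0.09, limma adjusted p = 0.00632) came with the narrowest spread of the 5 genes that rose. All 7 values lie under the median level of the arrays, 5.87 to 5.92, and whether a probe set this dim stands above background was not tested. Vgf did not pass a test against a 1.5-fold difference, which lies above its own fold.

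Chga and Chgb, the chromogranins used as markers of neuroendocrine cells, did not pass. Chga, at 7.47, 7.41, 7.30 and 7.48 on the YFP-positive arrays, varied little, and it was 7.35, 7.52 and 6.82 on the YFP-negative arrays. The YFP-positive values lie inside the YFP-negative range. The log2 difference was 0.19 ± 0.16 (limma adjusted p = 0.5), and its 95% confidence interval, 0.874- to 1.48-fold, leaves out a change as large as that of Scg2. Without YFP-negative array 3 the difference was -0.02.

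Chgb was the one granin with a lower mean in YFP-positive cells. Its log2 level was 8.74, 8.27, 8.67 and 9.0 on the YFP-positive arrays and 9.68, 9.87 and 8.66 on the YFP-negative arrays. YFP-negative arrays 1 and 2 were above all others, while array 3 lay among the YFP-positive values. The difference of -0.74 ± 0.31 did not pass (limma adjusted p = 0.164), and the 95% confidence interval ran from 0.362- to 0.998-fold. Without YFP-negative array 3 Chgb passed as lower, at -1.11 ± 0.20 or 2.15-fold (limma adjusted p = 0.0171), and array weights, which give that array the lowest weight, also called it (adjusted p = 0.0435).

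The genes of the proteins that bind the convertases rose. Scg5 encodes a chaperone of the convertase made from Pcsk2, and it was at 8.62, 8.38, 8.15 and 7.84 on the YFP-positive arrays against 6.22, 6.08 and 5.35 on the YFP-negative arrays. It was 5.14-fold higher with no overlap (2.36 ± 0.26, limma adjusted p = 0.00101). Pcsk1n encodes proSAAS, a precursor with an inhibitory segment for the convertase made from Pcsk1, and had levels of 7.45, 7.82, 7.12 and 6.95 against 5.71, 5.90 and 5.70. It was 2.95-fold higher (1.56 ± 0.20, limma adjusted p = 0.00221), again with no overlap. Both genes were lower on YFP-positive arrays 3 and 4 than on arrays 1 and 2.

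The enzyme genes that were measured, Pcsk1 and Cpe, did not pass. Pcsk1, the convertase gene of neurons and endocrine cells, was at 6.09, 5.92, 5.91 and 5.84 on the YFP-positive arrays and at 5.67, 5.84 and 4.90 on the YFP-negative arrays. YFP-negative array 2 reached the lowest YFP-positive value, and array 3 lay far under the rest. The difference was 0.47 ± 0.22 (limma adjusted p = 0.199), with a 95% confidence interval of 0.973- to 1.97-fold. All YFP-negative values of Pcsk1 and its value on YFP-positive array 4 lie under the median level of the arrays, 5.87 to 5.92. Whether this probe set stands above background was not tested. Cpe, the carboxypeptidase gene, was at 9.73, 9.53, 9.43 and 9.47 against 10.34, 9.82 and 9.43. Its difference was -0.32 ± 0.20 (limma adjusted p = 0.358), or 0.572- to 1.12-fold. Cpe is also expressed outside the nervous system, and the 7 genes of fibroblasts and mesenchyme were all lower in YFP-positive cells, with a mean of 7.22 to 8.33 against 9.25 to 9.88. The part of those cells in the level of Cpe was not tested.

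**Figure D2:**
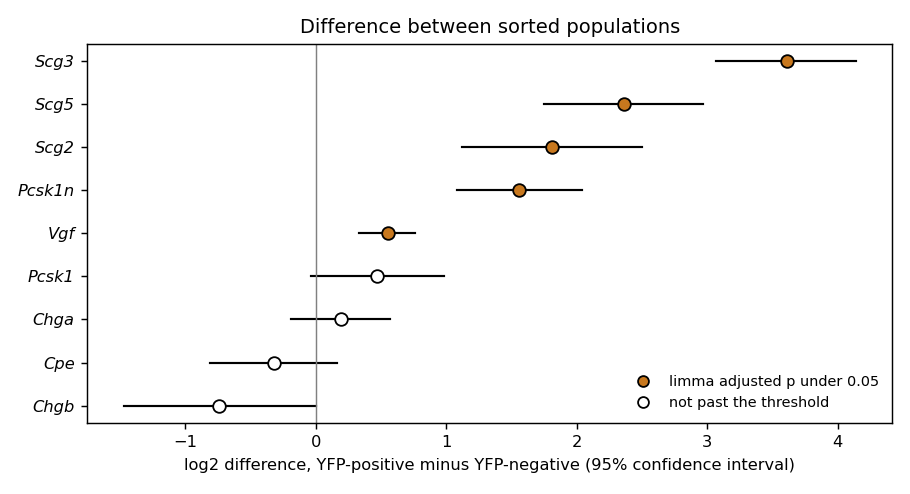
Log2 difference of the mean level, YFP-positive minus YFP-negative, for each measured gene, with its 95% confidence interval from the moderated limma fit (not adjusted for the number of genes). Filled points passed the threshold of an adjusted p of 0.05: Scg3 lies at 3.61, the other filled points run from 2.36 down to 0.55, and Chgb lies at -0.74.

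Whether 2 genes changed by different amounts was tested on the difference of their log2 levels within each array, for 3 pairs. The change of Scg2 exceeded that of Chgb by 2.54 on the log2 scale, and that of Chga exceeded that of Chgb by 0.92. The change of Scg5 exceeded that of its fellow convertase-binding gene Pcsk1n by 0.80. In each pair all 4 YFP-positive arrays lay on one side of all 3 YFP-negative arrays, which gave an exact two-sided permutation p of 0.0571 (0.0571 also after adjustment over the 3 pairs). This test doubles the p of the smaller tail. With 35 splits of 4 and 3 arrays it cannot give a p under 0.0571, so no pair could pass 0.05.

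Among the arrays, 2 patterns ran through the granule genes. The first was on YFP-negative array 3, which had the lowest YFP-negative value for 8 of the 9 genes, Vgf being the exception, where 34.1% of all genes had their lowest YFP-negative value there. Against the mean of the other YFP-negative arrays the log2 difference on it was -1.11 for Chgb, -0.90 for Scg2, -0.85 for Pcsk1, -0.80 for Scg5, -0.65 for Cpe and -0.61 for Chga. Enteroendocrine hormone genes had the same low array. For 9 of 11 the YFP-negative minimum was on array 3, and their mean level was 8.23, 8.35 and 7.33 on YFP-negative arrays 1, 2 and 3. The glucagon gene Gcg, chosen after its values were seen, differed by -1.98 there, and fate factors of these cells were lowest there in 6 of 8 cases. The fibroblast mean was also lowest on that array, 9.25 against 9.86 and 9.88, and so was the smooth muscle mean, 10.33 against 10.87 and 10.79. The neuron mean was highest there, at 5.44, 5.15 and 5.55 on arrays 1 to 3, and so was the glia and progenitor mean, at 5.33, 5.0 and 5.49. The mean of the intestinal epithelium genes was highest there too, at 8.53, 8.66 and 8.86. The part of cell composition in this pattern was not tested.

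The second pattern was in the YFP-positive group. For 6 of the 9 granule genes both arrays 3 and 4 lay under both arrays 1 and 2, as for 19.2% of all genes. The step was largest in Scg3, at -0.64, Scg2, at -0.63, and Pcsk1n, at -0.60 (log2, mean of arrays 3 and 4 minus mean of 1 and 2). The neuron mean went the same way, from 9.42 and 9.41 to 9.13 and 8.89. So did the mean of glia and progenitor genes, from 9.06 and 8.94 to 8.5 and 8.57. Chgb went the other way, with a step of 0.33, as did the hormone mean, from 6.47 on both to 7.16 and 7.33, and the epithelial mean given above. This upward step was not particular to these. The fibroblast mean went from 7.22 and 7.56 to 8.11 and 8.33, and the smooth muscle mean from 8.2 and 9.04 to 9.66 and 10.11. The myeloid mean went from 5.42 and 5.88 to 6.44 and 6.67. With YFP-positive arrays 3 and 4 left out the same 5 genes were called higher by limma. The part of cell composition in these steps was not tested.

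**Figure D3:**
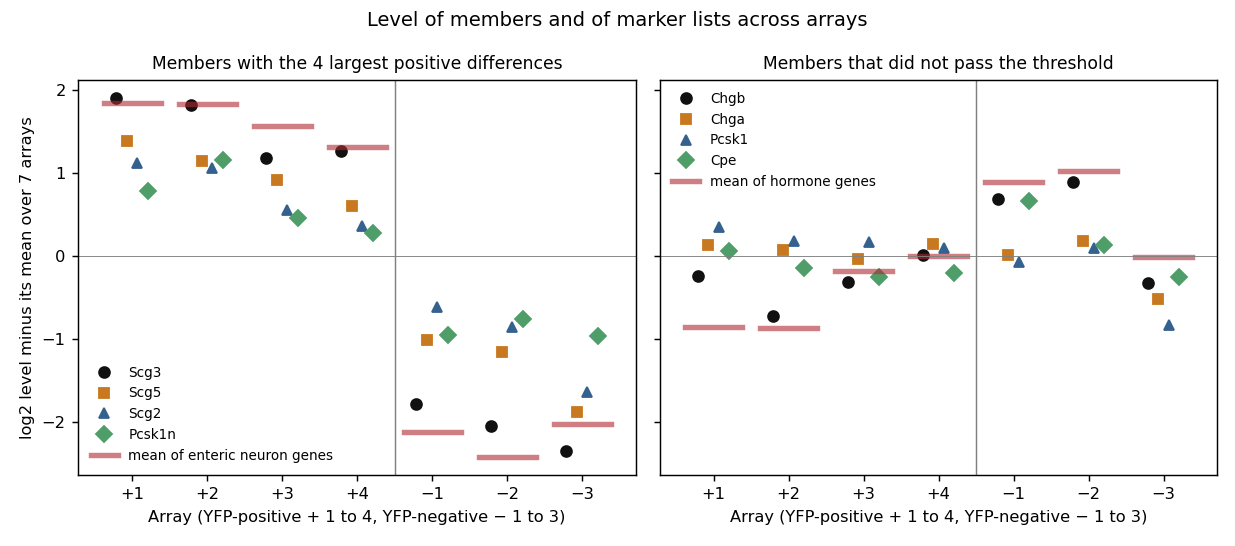
Log2 level on each array minus the gene's or list's own mean over the 7 arrays, for the 4 genes with the largest positive differences beside the mean of 8 enteric neuron genes (left) and for the 4 genes that did not pass beside the mean of 11 enteroendocrine hormone genes (right). The x axis gives the array, and arrays of a group have no order. Chgb and the hormone mean are both highest on YFP-negative arrays 1 and 2, as are the fibroblast and smooth muscle means, which are not drawn. Scg3 and the neuron mean are both high on every YFP-positive array, as is the glia and progenitor mean, which is not drawn.

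Other genes whose levels over the 7 arrays were most like each member, by the root mean square difference after each gene's own mean was taken off, are given as a description. Nearest to Scg3 were Tmeff2, Nell2 and Cdh2 (root mean square difference 0.17 to 0.18, log2), which rose by 3.75, 3.8 and 3.47. Nearest to Scg2 was the adhesion receptor gene Adgrb3 (0.14), followed by the sodium channel gene Scn3a (0.17) and Cryab (0.18), and nearest to Scg5 were Gsta4, Lsamp and Minar2 (0.15 to 0.17). Pcsk1n was nearest to Metrn, Fsd1l and Atl1 (0.11 to 0.15). Nearest to Chgb were Medag, the endothelial receptor gene Acvrl1 and the activin-binding protein gene Fst (0.09 to 0.15), all with higher levels on YFP-negative arrays 1 and 2 than elsewhere. Cpe was nearest to Ptn, Vkorc1 and Serhl (0.08 to 0.11), Pcsk1 to Rhobtb3, Pcdhb6 and Eid2 (0.09 each), Vgf to Agtr1a, Ncoa5 and Hnrnpab (0.04 to 0.06) and Chga to Zfp948, Nbeal1 and Irak1bp1 (0.05 to 0.06). For genes with small differences such as Chga and Vgf, a small distance is easily reached. Within the family, Chga and Pcsk1 (0.18) and Scg2 and Scg5 (0.29) were close, and Chgb and Scg3 (2.20) were farthest apart.

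Other enzymes that cut, trim or modify prohormones did not pass as higher. Of 16 measured 0 were higher (0 also at an unadjusted p under 0.05) and 2 lower by limma, with a median log2 difference of -0.15. Over all genes 9.11% were called lower, and 2 of 16 is near that share. Furin, the convertase of the constitutive secretory route, was lower at 6.51, 6.30, 6.52 and 6.64 on the YFP-positive against 7.09, 7.24 and 7.26 on the YFP-negative arrays (-0.70 ± 0.09, limma adjusted p = 0.00226). The carboxypeptidase gene Cpz was lower too (-1.45 ± 0.33, adjusted p = 0.0244), a call that was lost without any one array except YFP-negative array 3 (adjusted p of up to 0.121). Leaving out YFP-negative array 3 raised the number of lower genes to 4, leaving out YFP-positive array 4 left it at 2, and leaving out each other array gave 1. Pam, which amidates the ends of peptides and was chosen after its values were seen, stood at -0.22 ± 0.13 (limma adjusted p = 0.341).

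The next list holds proteins of the granule membrane and of granule formation. Among its 18 genes on the array, 9 rose and 1 fell, and the median log2 difference was 0.62. The shares over all genes were 8.39% higher and 9.11% lower, and 1 lower gene of 18 is not above the latter. Resp18, a granule protein gene, had levels of 6.65, 6.49, 5.31 and 5.51 against 4.45, 3.92 and 3.34 and rose by 2.09 ± 0.41 (limma adjusted p = 0.0132), a call lost without YFP-negative array 2 (adjusted p = 0.0559). The vesicular monoamine transporter gene Slc18a2 (1.97 ± 0.25), the vesicle protein gene Sv2c (1.93 ± 0.27) and Hid1, which acts in granule formation (1.44 ± 0.13), rose and kept their calls without any one array. Nucb2, the precursor of nesfatin, was the one that fell (-0.67 ± 0.17, limma adjusted p = 0.0357), and it passed, in fits without 1 array, only with YFP-positive 1 or YFP-negative 3 left out (elsewhere adjusted p of up to 0.150). Only 5 of these genes were called higher with YFP-negative array 2 left out, and 2 were called lower with array 3 left out.

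Of 20 genes for the docking and release of granules, 9 rose and 1 fell (median log2 difference 0.54). Among all genes 8.39% were called higher and 9.11% lower, so 1 lower gene of 20 is not above the share of all genes. Cadps, which primes dense-core granules for release, had a larger difference than any granule gene described above. It was at 8.33, 8.36, 8.03 and 8.31 on the YFP-positive arrays and 4.77, 4.41 and 4.41 on the YFP-negative arrays, a log2 difference of 3.73 ± 0.12 (limma adjusted p = 1.70e-05). The small GTPase gene Rab3c (2.57 ± 0.25), the synaptotagmin gene Syt4 (1.88 ± 0.26) and the calcium sensor gene Doc2b (1.66 ± 0.22) rose as well. Rab27a, a GTPase of granules and of the lytic granules of blood cells, fell (-0.86 ± 0.07, limma adjusted p = 3.94e-04). Leaving out any one array gave 9 or 10 higher genes and 1 lower.

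Genes of the proton pump and chloride transport, which acidify granules and lysosomes in all cells, had small differences. Of 15 measured 2 were higher and 0 lower (7 and 0 at an unadjusted p under 0.05), with a median of 0.19. Over all genes 8.39% were called higher, and 2 of 15 is near that share. Both that passed, Atp6v0a1 (0.55 ± 0.13) and Atp6v1h (0.33 ± 0.08), lost the call in 6 of 8 fits that left out arrays. With any of YFP-positive arrays 1 to 3 left out, or YFP-negative array 2, 0 passed by limma; the number was 1 without the fourth YFP-positive or first YFP-negative array and 3 without the third YFP-negative one.

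The precursors that granules carry were listed by the cells known to make them. Among 15 neuropeptide precursors on the array, 6 rose and 0 fell (8 and 0 at an unadjusted p under 0.05 by limma), and the median log2 difference was 0.91. Calls over all genes were 8.39% higher and 9.11% lower. Gal (4.37 ± 0.31), Vip (3.92 ± 0.40) and Cartpt (3.27 ± 0.30) kept their calls without any one array. Tac1, with 9.09, 8.71, 8.52 and 8.23 against 7.41, 7.72 and 5.99, rose by 1.59 ± 0.42 (limma adjusted p = 0.0410) and kept its call only without YFP-negative array 2 or 3. Only 3 precursors were called with YFP-positive array 2, or YFP-negative array 1, left out.

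Of 11 enteroendocrine hormone genes, with the serotonin synthesis gene Tph1 among them, 0 rose and 1 fell (0 and 5 at an unadjusted p under 0.05 by limma), with a median of -1.11. Over all genes 9.11% were called lower, and 1 of 11 is near that share. The incretin gene Gip fell by 2.55 ± 0.56 on the log2 scale (limma adjusted p = 0.0210), from 9.43, 9.45 and 8.59 on the YFP-negative arrays to 6.76, 5.50, 6.16 and 7.98, and kept its call only when the array left out was YFP-positive 2 or 4 or YFP-negative 3 (otherwise adjusted p of up to 0.0877). Without YFP-negative array 3, where Chgb passed as lower, 5 hormone genes did: Gip, Gcg, Cck, Ghrl and Pyy. The share of 9.11% belongs to the fit on 7 arrays. In fits without 1 array, 1166 to 1890 of all 19938 genes were called lower. Of the 5 hormone genes, Gcg (-2.08 ± 0.24), Cck (-1.57 ± 0.19), Ghrl (-2.38 ± 0.51) and Pyy (-1.15 ± 0.27) were chosen after their values were seen. In the fits where Gip lost its call no hormone gene passed.

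Of 8 measured fate factors of enteroendocrine cells, Neurog3, which starts their differentiation, was lower in YFP-positive cells (-1.28 ± 0.18, limma adjusted p = 0.00349), and so was Rfx6 (-0.82 ± 0.21, limma adjusted p = 0.0374), whose call, in fits without 1 array, held only with YFP-positive array 4 or YFP-negative array 3 left out. Insm1, a zinc-finger factor of both neurons and endocrine cells, rose, at 7.53, 7.80, 8.03 and 7.82 against 6.42, 6.53 and 5.86 (1.52 ± 0.18, limma adjusted p = 0.00159). The number of lower factors rose to 3 with YFP-negative array 3 left out and dropped to 1 with either other YFP-negative array, or one of YFP-positive arrays 2 and 3, left out.

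Chromaffin and sympathetic cells also come from the neural crest and hold much chromogranin A. The mean of 9 genes listed for these cells was 6.12 on YFP-positive array 1, against 5.45 to 5.56 elsewhere. Of the 9, Phox2a, also a gene of enteric neurons, was higher in YFP-positive cells, and the transcription factor genes Hand1, Gata2 and Gata3 were lower. The synthesis enzyme genes Th and Dbh, chosen after their values were seen, were highest on YFP-positive array 1: Th was at 6.69 there and 4.64 to 5.02 on all other arrays, and Dbh at 7.10 there, 5.32 to 5.71 on the other YFP-positive arrays and 4.26 to 4.74 on the YFP-negative arrays. The other synthesis enzyme genes listed, also given after their values were seen, were not highest there: Pnmt was at 4.14 against 4.28 on YFP-negative array 3, and Ddc at 6.08 against 6.40 on YFP-negative array 1. Slc6a2 of the same list, also given after its values were seen, was highest on YFP-positive array 1, at 5.32 against 4.26 to 4.47 elsewhere. Chga was at 7.47 on that array, inside the range of the other YFP-positive arrays, 7.30 to 7.48. Without array 1 the same 5 granule genes were called higher.

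**Figure D4:**
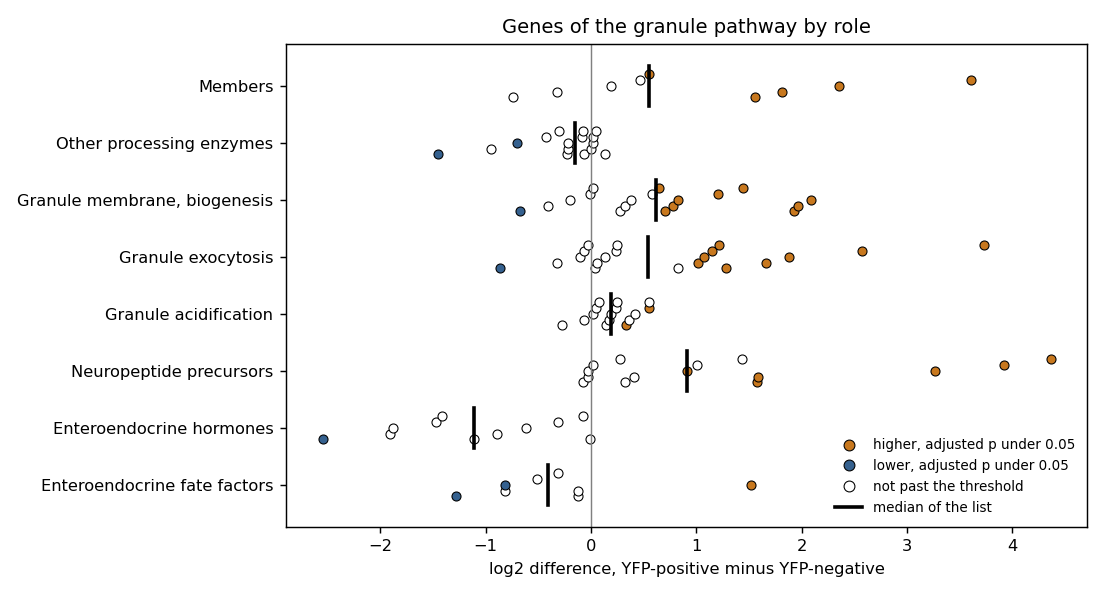
Log2 difference, YFP-positive minus YFP-negative, of every measured gene of the granin and processing family (top row) and of 7 other lists of the granule pathway, 1 point a gene. Filled points passed a limma adjusted p of 0.05, and the bar is the list's median, which runs from 0.91 for neuropeptide precursors to -1.11 for enteroendocrine hormones, against 0.01 over all genes. Points are spread vertically for legibility only.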

How the data were processed

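RNA of 4 YFP-positive and 3 YFP-negative sorted samples was hybridised to 1 array each, after amplification from small amounts of total RNA, per the labels' protocols. The values the authors deposited, 1 per probe set and array, are on a log2 scale. Per the submitters' processing notes they come from RMA and Affymetrix Expression Console, with no version named. RMA and amplification can compress differences, and there are no detection calls.

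Of 35556 probe sets 21789 were paired with 1 gene symbol, and the brightest of each gene gave 19938 genes; 0 sample columns were unmatched. The test was the moderated linear model of limma 3.58.1 (lmFit, eBayes; R 4.3.3), with Benjamini-Hochberg adjustment over the 19938 genes and a threshold of 0.05. The fit was tested on simulated data. Differences are YFP-positive minus YFP-negative. Pairs of genes were compared by exact permutation (scipy 1.17.1). Promoters are from RefSeq (GRCm38.p6), with 8 of 10 genes matched. The pair of Pcsk1 and Pcsk2 was not run.

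The family, the 15 other lists and the tests were chosen with earlier results of these data known. Named from the other lists are up to 4 genes past the threshold with the largest difference, up to 2 called in the direction opposite to their list, and the 3 genes nearest to each member by level over the arrays. Lists of blood, muscle and vessel cells served as markers: 2 of 6 smooth muscle genes and 1 of 6 endothelial genes were lower, 1 endothelial gene was higher, and of 9 chromaffin and sympathetic genes 1 was higher and 3 lower. These counts moved with single arrays, as the closing section gives. The alternatives are in the closing section.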

Additional observations from a re-analysis of the deposited data

Results flagged for a closer look

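In the group of 4 YFP-positive arrays, each of the 9 granule genes and of the other named genes of the lists, 55 in all, was searched for a single array whose gap to the nearest other array passed the critical share of the group's range (Dixon's ratio at the 95% level). None of the 9 granule genes had such an array. Of the other named genes 3 did, about as many as chance flags, which is about 1 in 20 groups. Sv2c stood high on YFP-positive array 1, at 7.48 against 6.53 to 6.59. Doc2b stood high on the same array, at 8.09 against 7.21 to 7.32. Cadps stood low on YFP-positive array 3, at 8.03, where its other 3 values were 8.31 to 8.36.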

How the results depend on the processing

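The 5 higher granule genes, Scg3, Scg5, Scg2, Pcsk1n and Vgf, kept direction and call in all 17 alternatives, except Vgf in the test against a 1.5-fold difference, which lies above its own fold. Adjusted p-values ran up to 0.0425 for Scg2 and 0.00242 for Scg3. The count of lower granule genes, 0, was 1 with array weights and 0 to 1 when 1 array was left out, in both cases through Chgb; the difference of Chgb ran from -1.11 to -0.50. Chga reversed, to -0.0185, without YFP-negative array 3 (range from -0.0185 to 0.3290 when 1 array was left out), and the other members kept their direction. The 3 pair differences kept theirs in every alternative run.

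Same-numbered arrays did not deviate together (correlations of 0.008, -0.086 and 0.038). Different sorted populations need not deviate together even when paired, so whether the numbers pair the samples is not known. With the replicate number as a block 5 members were higher and 0 lower.

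Over all genes, the test against 1.5-fold called 469 higher and 558 lower, against 1672 and 1817, and 1166 were lower without YFP-negative array 2. That test called 0 of the 2 lower processing enzymes, 4 of 9 membrane, 5 of 9 release, 0 of 2 acidification and 3 of 6 peptide precursor genes, and none of the lower genes of the membrane, release, hormone and fate lists. Array weights called 4 acidification and 4 hormone genes, and either rescaling, or leaving out the dimmest genes, called 2 hormone genes. Without the dimmest genes, or without YFP-positive arrays 3 and 4, 1 fate factor was lower. With the block, or without those 2 arrays, 1 acidification gene was called. Of the marker lists, lower smooth muscle genes, 2 of 6, numbered 0 with YFP-positive array 2 or 3 or either of YFP-negative arrays 1 and 2 left out, 1 with the block or with YFP-positive 1 or YFP-negative 3 left out, 4 without YFP-positive array 4, 5 without YFP-positive arrays 3 and 4, and 0 in the 1.5-fold test. Lower endothelial genes, 1 of 6, numbered 2 without YFP-negative array 1 or 2, without the dimmest genes or with the block. Lower chromaffin genes, 3 of 9, numbered 1 with the block or without YFP-positive arrays 3 and 4 and 0 in the 1.5-fold test. Higher ones, 1 of 9, numbered 2 without YFP-positive array 1, without the dimmest genes, with either rescaling and with trend and robust options. Lower epithelial genes, 0 of 12, numbered 2 without YFP-positive arrays 3 and 4, and the 1.5-fold test called 4 of 7 lower fibroblast genes and 0 endothelial genes higher. With 7 arrays, small differences are measured with wide intervals.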
